A study of Rattus norvegicus with 16 samples.

Results

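The organ-related expression difference shared by 3 dendritic cell (DC) populations was measured on 12 of the 16 arrays of a study of rat antigen-presenting cells. The 12 arrays were the 6 thymic DC arrays (cDC1, cDC2 and CD103- DC-like cells, 2 each) and the 6 splenic DC arrays of the same 3 populations. The other 4 arrays held macrophages, 2 from thymus and 2 from spleen, and were used to ask whether macrophages follow. All cells were sorted from male Lewis rats. The labels name no treatment or transgene and give no age.

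cDC1 were gated as live CD45+ MHCII+ CD103+ CD172a- cells, cDC2 as CD103+ CD172a+ cells and CD103- DC-like cells as CD103- CD45R- CD172a+ cells. Macrophages were gated as CD45+ CD45R- HIS36+ cells, HIS36 being an antibody to rat CD163. Before the sort, thymic DCs were enriched with an antibody to MHC class II and magnetic beads, whereas splenic DCs were enriched on a density gradient. The way the DCs were isolated and the organ they came from therefore cannot be told apart. Macrophages of both organs were enriched with CD11b/c beads. Whether the 2 arrays of a group stand for different rats is not given in the labels. All p-values below rest on the scatter among these arrays alone, and that scatter may be technical.

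Conventional DCs take up antigen, process it and present it to T cells. In the thymus they present self antigens to developing T cells and take part in the deletion of self-reactive cells and in the making of regulatory T cells, whereas in the spleen they sample antigen from blood. CCL17 and CCL22 are chemokines that both bind the receptor CCR4, which in mice is carried by thymocytes that have passed positive selection.

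The genes of gate markers, and the cDC1 genes Xcr1 and Clec9a, were high in the populations named for them. Some were also found outside those populations. Xcr1 and Clec9a were not part of the gates given above. The chemokine receptor gene Xcr1 averaged 16.65 log2 units in thymic cDC1 and 17.5 in splenic cDC1, and Clec9a averaged 16.16 in thymic cDC1 and 17.54 in splenic cDC1. In cDC2, Xcr1 averaged 4.83 in thymus, against 9.29 in spleen, and Clec9a 5.88 in thymus, against 9.46 in spleen. Xcr1 averaged 10.26 in thymic and 11.54 in splenic macrophages. Itgae, which encodes CD103, averaged 13.27 to 14.48 in cDC1 and cDC2 of both organs, 6.02 in thymic CD103- cells and 7.93 in splenic CD103- cells. Sirpa, which encodes CD172a, lay near 18 log2 units in cDC2 and CD103- cells of both organs and at 9.06 in thymic cDC1 and 8.56 in splenic cDC1. The macrophage marker Cd163 averaged 16.56 in thymic and 15.97 in splenic macrophages. Its level was 11.34 in thymic cDC2, against 5.46 in splenic cDC2. Background was set at 5.73 log2 units, the 95th percentile of the group means of 1160 olfactory receptor clusters, genes that immune cells are not known to use. A difference that involved a group mean below this level is given as a bound.

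Promoter sequences are shown for 5 genes on which the results turn, 3 that were higher and 2 that were lower in thymic DCs. Each covers 250 bases before and 50 bases after the RefSeq start on build GRCr8, 5′ to 3′ on the gene's strand. Capitals mark TTCNNNGAA, a palindromic motif bound by STAT factors, in Ccl22, Ccl17 and Cish, and TGACG, the core of the cAMP response element, on either strand in Sik1 and Dusp5. Cish encodes a cytokine-inducible inhibitor of JAK-STAT signalling, Sik1 a salt-inducible kinase and Dusp5 a phosphatase of the kinase ERK.
Ccl22, chr19:10270310-10270609, minus strand: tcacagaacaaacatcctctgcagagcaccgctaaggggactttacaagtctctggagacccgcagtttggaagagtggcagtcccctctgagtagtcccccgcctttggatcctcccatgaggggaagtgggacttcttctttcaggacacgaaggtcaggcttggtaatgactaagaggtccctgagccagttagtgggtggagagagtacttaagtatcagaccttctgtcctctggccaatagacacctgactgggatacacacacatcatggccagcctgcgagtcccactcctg
Ccl17, chr19:10209846-10210145, minus strand: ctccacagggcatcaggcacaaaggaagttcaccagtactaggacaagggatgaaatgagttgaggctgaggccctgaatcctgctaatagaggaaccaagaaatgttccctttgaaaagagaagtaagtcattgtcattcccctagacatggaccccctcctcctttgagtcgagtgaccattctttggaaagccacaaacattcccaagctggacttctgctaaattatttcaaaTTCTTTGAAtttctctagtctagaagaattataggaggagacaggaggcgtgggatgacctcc
Cish, chr8:116850719-116851018, plus strand: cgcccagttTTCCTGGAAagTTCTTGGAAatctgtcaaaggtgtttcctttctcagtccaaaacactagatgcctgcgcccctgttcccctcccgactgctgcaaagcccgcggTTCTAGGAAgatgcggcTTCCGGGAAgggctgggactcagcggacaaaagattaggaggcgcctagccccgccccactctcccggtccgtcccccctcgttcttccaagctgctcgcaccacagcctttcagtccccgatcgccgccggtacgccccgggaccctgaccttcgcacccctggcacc
Sik1, chr20:9958597-9958896, minus strand: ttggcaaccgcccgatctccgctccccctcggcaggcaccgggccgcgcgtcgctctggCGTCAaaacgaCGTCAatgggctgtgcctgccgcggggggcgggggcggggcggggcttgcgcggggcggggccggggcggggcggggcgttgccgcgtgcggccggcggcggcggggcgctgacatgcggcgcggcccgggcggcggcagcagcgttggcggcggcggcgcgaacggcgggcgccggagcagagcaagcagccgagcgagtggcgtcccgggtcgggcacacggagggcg
Dusp5, chr1:262543524-262543823, plus strand: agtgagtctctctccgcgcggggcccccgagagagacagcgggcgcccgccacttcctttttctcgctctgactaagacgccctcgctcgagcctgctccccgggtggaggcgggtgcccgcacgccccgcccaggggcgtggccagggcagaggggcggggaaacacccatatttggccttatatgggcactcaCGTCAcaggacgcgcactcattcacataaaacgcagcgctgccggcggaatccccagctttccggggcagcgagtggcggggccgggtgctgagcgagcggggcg
The Cish window held 4 matches to TTCNNNGAA, the Ccl17 window 1 and the Ccl22 window 0. The Sik1 window held 2 matches to TGACG and the Dusp5 window 1. Among genes with 1 symbol and a RefSeq promoter, TTCNNNGAA stood in 5.89% of 1171 shared higher genes, in 5.96% of 856 shared lower genes and in 7.19% of all 13487 genes tested. TGACG stood in 29.7% of the shared higher, 33.6% of the shared lower and 27.7% of all genes tested. These shares and matches describe letters in the windows and are no evidence of binding.

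The rule took clusters whose thymus minus spleen difference, with population as a term, had an adjusted p under 0.05 with limma and went the same way in all 3 populations. It also asked that in each population at least 1 organ mean reach background. Of 23188 transcript clusters, 3013 were shared (13.0%). They comprised 1673 higher in thymic DCs (7.21%) and 1340 lower (5.78%). Among the 3726 called clusters (16.1% of those tested), 191 did not go the same way in all 3 populations, and 522 went the same way but did not reach background. In the 11842 clusters that reached background in every population, the shared higher made up 14.1% and the shared lower 11.3%. The last gene inside the threshold was Plpp5, with a difference of 0.50, and the first outside it was Cers4, with a difference of -0.54.

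The shared differences were moderate in most clusters. Their median was 0.86 log2 units for the higher set and -0.93 for the lower set, against -0.02 over all clusters. By population, the median of the higher set was 0.76 in cDC1, 0.95 in cDC2 and 0.83 in CD103- cells, and that of the lower set was -0.82, -1.06 and -0.81 in the same order. A difference of at least 1 log2 unit in every population was found in 242 higher and 242 lower clusters, and one of at least 2 units in 55 higher and 38 lower clusters. When each population had its own test in the fit of 8 group means, 351 clusters (1.51%) were higher in thymus in each of the 3. In the same fit 303 (1.31%) were lower in each. These tests share the spread of each cluster over all groups, macrophages included. Thymic and splenic arrays did not overlap in any population for 1175 shared higher and 982 shared lower clusters. Over all clusters the same held for 6.26% with thymus higher and 5.68% with thymus lower. All 6 thymic arrays lay beyond all 6 splenic ones in 471 shared higher clusters (2.23% of all clusters lay so) and in 361 shared lower clusters (1.88% of all clusters). The arrays had chosen these clusters, so the counts are a description.

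The chemokine genes Ccl22 and Ccl17 had large organ differences in all 3 DC populations. Ccl22 measured 18.21 and 18.59 in thymic cDC1, 18.15 and 17.97 in thymic cDC2, with 16.43 and 16.27 in thymic CD103- cells. In spleen it measured 8.52 and 7.58 in cDC1, 7.90 and 6.88 in cDC2, and 10.44 and 9.96 in CD103- cells. All 6 thymic arrays lay above all 6 splenic arrays. The mean difference was 9.06 ± 0.61 log2 units (SE; limma, adjusted p = 2.24e-06), made up of 10.35 in cDC1, 10.67 in cDC2 and 6.15 in CD103- cells. The organ difference of Ccl22 was not equal among the populations (limma F test of organ by population, adjusted p = 4.87e-05), and CD103- cells had both the lowest thymic and the highest splenic level.

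Ccl17 measured 14.93 and 15.35 in thymic cDC1, 14.29 and 14.10 in thymic cDC2, with 16.12 and 16.21 in thymic CD103- cells. In spleen it measured 7.01 and 6.15 in cDC1, 6.86 and 6.51 in cDC2, and 8.45 and 8.12 in CD103- cells. The organs again did not overlap. The difference of Ccl17 was 7.98 ± 0.20 (limma, adjusted p = 1.88e-10), with 8.56 in cDC1, 7.51 in cDC2 and 7.88 in CD103- cells, and the F test gave no call for unequal size (limma, adjusted p = 0.261). Their receptor gene Ccr4 lay below background on the group means of both organs in all 3 populations.

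Macrophages followed for both chemokines. Ccl17 measured 13.73 and 12.66 in thymic macrophages, against 6.49 and 6.64 in splenic macrophages, a difference of 6.63 (limma, adjusted p = 1.35e-10). Ccl22 measured 7.85 and 8.11 in thymic macrophages, against 5.43 and 5.45 in splenic macrophages, at least 2.25 log2 units (limma, adjusted p = 2.07e-05). On the measured values, the Ccl22 difference of macrophages was smaller than the mean difference of the DCs by 6.52 log2 units (limma, adjusted p = 1.92e-09). The splenic macrophage mean lay below background, so the size of this gap is not exact.

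**Figure D1:**
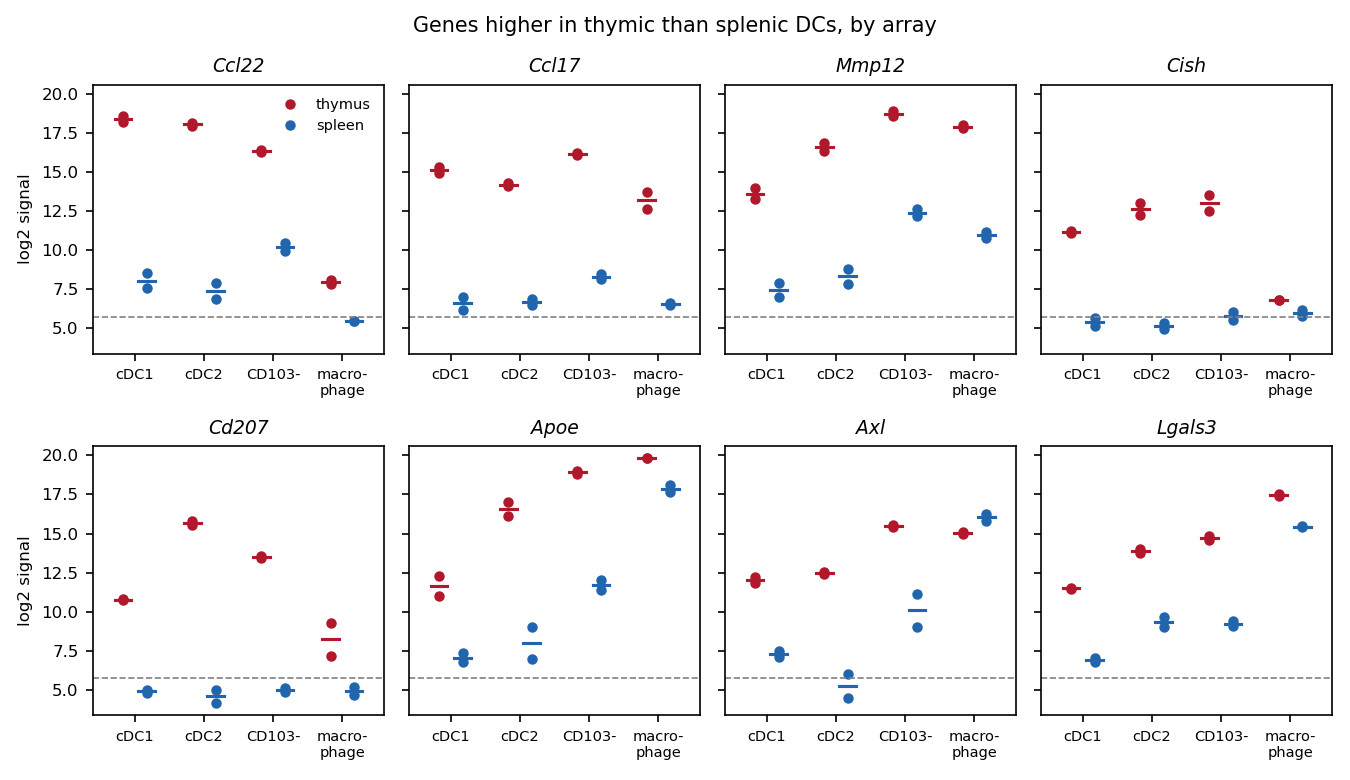
Log2 signal of 8 genes that were higher in thymic DCs, with 1 point per array, a line at the mean of the 2 arrays and thymus to the left of spleen in each population. The dashed line is background (5.73). Ccl22 and Ccl17 stood above 14 in all thymic DC arrays, and in Axl the thymic macrophages lay below the splenic ones.

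Beyond the chemokines, the genes with the largest smallest-of-3 differences included a secreted protease, cytokine signalling inhibitors, lectins and an apolipoprotein. Genes of this kind were picked, in either direction, only where thymic and splenic arrays did not overlap within any population. Their lack of overlap is therefore a description. Mmp12, which encodes macrophage elastase, measured 13.95 and 13.26 in thymic cDC1, 16.84 and 16.37 in thymic cDC2 and 18.89 and 18.60 in thymic CD103- cells, against 7.92 and 6.97, 8.79 and 7.83, and 12.16 and 12.63 in the same splenic populations. All thymic arrays lay above all splenic ones, with a difference of 6.93 ± 0.35 (limma, adjusted p = 1.82e-07). Macrophages had the same difference of 6.93 (limma, adjusted p = 2.3e-10).

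Cish and Socs2, both inhibitors of cytokine receptor signalling through JAK and STAT proteins, stood apart between the organs in DCs. Cish measured 11.21 and 11.08 in thymic cDC1, 13.02 and 12.25 in thymic cDC2, with 13.54 and 12.50 in thymic CD103- cells, against a range of 4.94 to 6.06 over the 6 splenic DC arrays. The thymic level was at least 6.52 log2 units higher (limma, adjusted p = 4.43e-08). Socs2 ranged from 13.44 to 15.93 in thymic DCs, against 8.10 to 10.49 in splenic DCs, a difference of 4.86 ± 0.32 (limma, adjusted p = 2.15e-06). In macrophages the organ difference was 0.87 for Cish (limma, adjusted p = 0.101) and 0.71 for Socs2 (limma, adjusted p = 0.213), and neither was called.

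Cd207, which encodes the lectin langerin, ranged from 10.76 to 15.79 in thymic DCs and from 4.16 to 5.13 in splenic DCs, at least 7.58 units apart (limma, adjusted p = 3.3e-06). Its thymic level was highest in cDC2, at 15.79 and 15.52, and lowest in cDC1, at 10.78 and 10.76. The splenic arrays were all below background. The galectin genes Lgals3 and Lgals1 were higher by 4.88 ± 0.18 (limma, adjusted p = 1.8e-08) and by 4.47 ± 0.49 (limma, adjusted p = 7.24e-05), without overlap between organs. Slc7a11, which encodes the cystine-glutamate exchanger, was higher by 5.26 ± 0.48 in thymic DCs (limma, adjusted p = 1.85e-05), whereas macrophages differed by -0.07 (limma, adjusted p = 0.957).

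Apoe, which encodes apolipoprotein E, and Axl, a receptor tyrosine kinase that takes part in the clearance of dying cells, also stood high in thymic DCs. Apoe measured 12.28 and 10.98 in thymic cDC1, 16.10 and 17 in thymic cDC2 and 18.79 and 19.03 in thymic CD103- cells, against 7.33 and 6.77, 6.98 and 8.99, and 11.39 and 12.02 in the same splenic populations. Within each population the organs did not overlap, and the difference was 6.78 ± 0.56 (limma, adjusted p = 8.59e-06). Axl was at least 5.62 units higher in thymic DCs (limma, adjusted p = 4.68e-06), against -1.01 in macrophages (limma, adjusted p = 0.241). The sterol exporters Abcg1 and Abca1 were higher by 2.19 ± 0.17 (limma, adjusted p = 6.31e-06) and by at least 2.71 (limma, adjusted p = 1.16e-05), and both were called higher in thymic macrophages as well.

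Apoe and Axl belong to a list of 23 macrophage markers, of which 7 were shared higher and 1, Vcam1, was shared lower. The shares over clusters above background in DCs were 14.1% higher and 11.3% lower. The list's median DC difference was 1.68, with 0.23 in cDC1, 2.33 in cDC2 and 1.76 in CD103- cells. Its mean level was 6.96 and 6.46 in thymic cDC1, against 6.21 and 6.13 in splenic cDC1. It was 9.33 and 9.68 in thymic cDC2, against 6.76 and 7.54 in splenic cDC2, and 11.61 on both thymic CD103- arrays, against 9.28 and 10.30 in splenic CD103- cells. Macrophages lay at 14.40 and 14.57 in thymus and at 14.38 and 14.19 in spleen. Of the 23 markers, 11 lay above background in thymic cDC1, against 12 in splenic cDC1, 19 in thymic cDC2, against 15 in splenic cDC2, and 21 in CD103- cells of either organ. Cd163, C1qb and Mertk were below background in cDC1 of both organs. C1qa averaged 8.76 in thymic cDC1, against 8.53 in splenic cDC1, and Lgmn 10.97 in thymic cDC1, against 8.35 in splenic cDC1. In bulk RNA of sorted cells, fewer cells of a type and less RNA per cell cannot be told apart. The part of macrophage RNA in the DC differences was not tested.

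**Figure D2:**
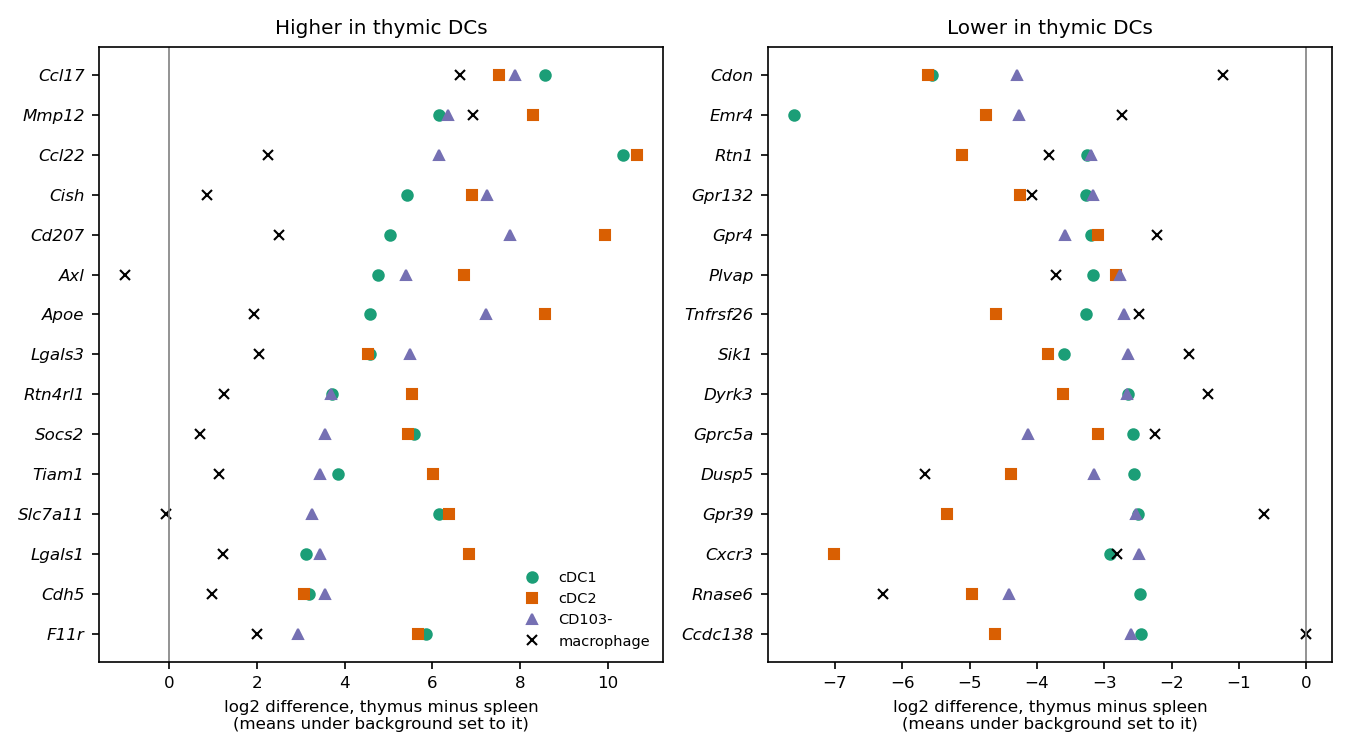
Thymus minus spleen difference on the log2 scale for the 15 genes per direction with the largest smallest-of-3 difference. The genes were picked among shared genes whose organs did not overlap within any DC population. Symbols stand for cDC1 (circles), cDC2 (squares), CD103- cells (triangles) and macrophages (crosses). Group means below background were set to it, so such points are bounds. Macrophages lay within the DC range for Mmp12, below it for Dusp5 and near 0 for Slc7a11.

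Genes lower in thymic DCs included receptors for Hedgehog, lipid and proton signals, a kinase and a phosphatase. Cdon, a cell surface co-receptor for Hedgehog ligands, measured 6.71 and 5.72 in thymic cDC1, 7.51 and 7.18 in thymic cDC2 and 7.27 and 7.11 in thymic CD103- cells, against 12.84 and 10.71, 13.46 and 12.45, and 11.91 and 11.06 in the same splenic populations. The organs did not overlap, and the difference was -5.16 ± 0.37 (limma, adjusted p = 3.28e-06). In macrophages it was -1.24 (limma, adjusted p = 0.133).

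Emr4, an adhesion G protein-coupled receptor, ranged from 4.58 to 11.17 in thymic DCs and from 13.09 to 16.01 in splenic DCs. Its difference was -5.54 or below (limma, adjusted p = 1.85e-05), and thymic cDC1 were below background. Gpr132, a receptor for lipids, fell by 3.56 ± 0.20 (limma, adjusted p = 5.9e-07), with thymic arrays from 12.29 to 13.70 and splenic arrays from 15.51 to 17.09. Gpr4, a proton-sensing receptor, fell by 3.29 ± 0.23 (limma, adjusted p = 3.28e-06). In all of these genes the 6 thymic arrays lay below the 6 splenic ones, and macrophages were called lower in thymus for Emr4, Gpr132 and Gpr4.

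Sik1 measured 13.02 and 12.36 in thymic cDC1, 12.44 and 12.64 in thymic cDC2 and 13.40 and 13.45 in thymic CD103- cells, against 16.47 and 16.11, 16.52 and 16.22, and 16 and 16.16 in the same splenic populations. The splenic arrays were close together and did not overlap the thymic ones. The difference was -3.36 ± 0.20 (limma, adjusted p = 7.87e-07). Dusp5 fell by 3.36 ± 0.31 in thymic DCs (limma, adjusted p = 1.85e-05) and the macrophage difference was -5.66 (limma, adjusted p = 1.88e-08).

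These last genes are known targets of acute signalling, and a list of 29 measured immediate early and dissociation stress genes was examined beside them. In thymic DCs 13 of its members were lower and 4 were higher, with a median difference of -0.59. Of clusters above background in DCs, 11.3% were shared lower and 14.1% shared higher, the latter near the share in the list. Fosb, a subunit of the AP-1 factor, fell by 2.81 ± 0.22 (limma, adjusted p = 5.82e-06), with thymic arrays from 13.98 to 14.74 and splenic arrays from 16.56 to 18.07. Nr4a1, a nuclear receptor induced by activation, fell by 1.91 ± 0.23 (limma, adjusted p = 0.000114), and Klf2, a zinc finger factor, fell by 2.32 ± 0.30 (limma, adjusted p = 0.000205). Of the 13 lower members, 10 were also lower in thymic macrophages, against 38.1% of all shared lower clusters. The chaperone gene Hspa1a moved the other way, by 1.21 ± 0.18 (limma, adjusted p = 0.000601), as did Egr2, a zinc finger factor, by 2.87 ± 0.43 (limma, adjusted p = 0.000621). Enrichment before the sort differed between the organs for DCs and not for macrophages, and the part of handling in these differences was not tested.

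**Figure D3:**
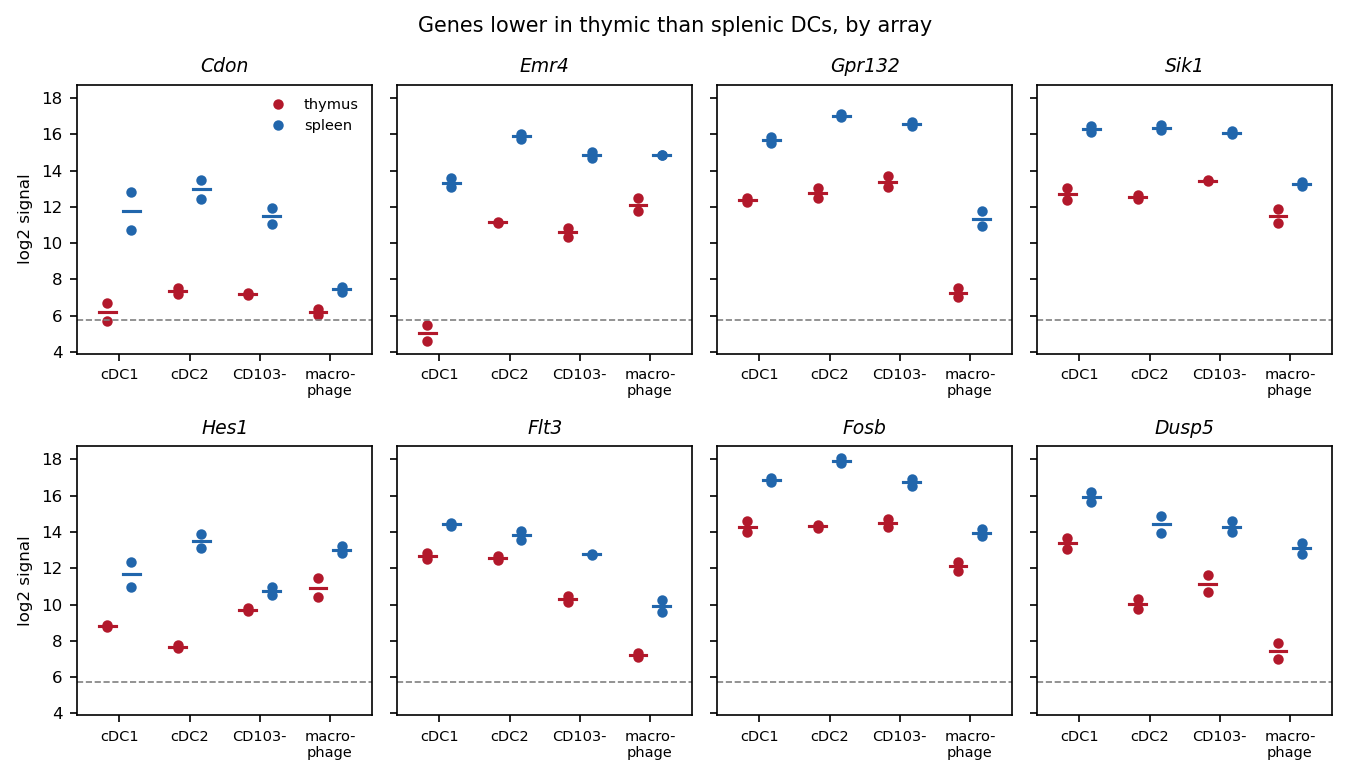
Log2 signal of 8 genes that were lower in thymic DCs, drawn as for the higher genes, with thymus left of spleen and background dashed. Sik1 and Fosb had splenic DC arrays above 15.9 and thymic DC arrays below 14.8.

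Flt3, the receptor for the growth factor that sustains DCs, ranged from 10.12 to 12.85 in thymic DCs and from 12.75 to 14.50 in splenic DCs, and the arrays did not overlap within any population. It fell by 1.82 ± 0.19 (limma, adjusted p = 4.54e-05), and the macrophage difference was -2.72 (limma, adjusted p = 5.54e-07). Of 34 DC lineage transcription factors and growth factor receptors, 4 were shared higher and 7 shared lower, with a median of -0.21. Of clusters above background in DCs, 14.1% were shared higher, near the share in this list, and 11.3% shared lower. Klf4, a zinc finger factor, fell by 2.86 ± 0.38 (limma, adjusted p = 0.00026), and Csf2rb, the shared receptor chain for GM-CSF, IL-3 and IL-5, was higher by 1.78 ± 0.37 (limma, adjusted p = 0.00502). The factors Irf8 (-0.21; limma, adjusted p = 0.594), Irf4 (1.29; adjusted p = 0.0589) and Zbtb46 (-0.48; adjusted p = 0.163) did not pass. Irf4 passed without thymic cDC2 replicate 2 (adjusted p = 0.0397) or without splenic CD103- replicate 1 (0.0468), and Zbtb46 without thymic cDC1 replicate 2 (0.0221). Irf4 also passed under 5 other settings, so its call depends on the setting. Adjusted p ran from 5.39e-06 in the limma fit of 8 group means to 0.0471 after quantile normalization. Irf4 measured 13.29 and 13.32 in thymic cDC1, against 10.12 and 9.87 in splenic cDC1. Thymic cDC2 had 14.64 and 14.12, against 14.37 and 14.35 in spleen. Thymic CD103- cells had 13.81 and 14.05, against 13.73 and 13.05 in spleen.

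In the Notch pathway, a contact signal that sustains splenic cDC2 in mice, 2 of 28 measured members were shared higher and 5 shared lower, with a median of -0.32. The share of higher members was near that of all clusters (7.21%), of which 5.78% were shared lower. Of clusters above background in DCs, 14.1% were shared higher and 11.3% shared lower. Hes1, a transcriptional target of Notch, measured 8.85 and 8.75 in thymic cDC1, 7.58 and 7.77 in thymic cDC2 and 9.79 and 9.64 in thymic CD103- cells, against 10.99 and 12.36, 13.11 and 13.89, and 10.94 and 10.54 in the same splenic populations. The organs did not overlap, and the gap was widest in cDC2. Hes1 fell by 3.24 ± 0.59 (limma, adjusted p = 0.00232), the glycosyltransferase gene Lfng by 1.95 ± 0.26 (limma, adjusted p = 0.000231) and the receptor gene Notch2 by 0.93 ± 0.17 (limma, adjusted p = 0.00249). Rbpj, the DNA-binding partner of the Notch intracellular domain, was higher by 1.25 ± 0.18 (limma, adjusted p = 0.000448).

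In the TGF-beta pathway 3 of 25 measured members were shared higher and 0 shared lower, a share near the 14.1% of clusters above background that were shared higher. The receptor gene Tgfbr1 ranged from 14.77 to 16.84 in thymic DCs and from 12.75 to 13.62 in splenic DCs, a difference of 2.37 ± 0.24 (limma, adjusted p = 3.8e-05). Macrophages followed, by 3.29 (limma, adjusted p = 5.28e-09). Smad7, an inhibitor of the pathway, was higher by 1.91 ± 0.32 (limma, adjusted p = 0.00139).

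Among 40 measured genes of the CCR7+ mature DC state, 11 were shared higher and 2 shared lower. The shares over clusters above background in DCs were 14.1% and 11.3%. The list's median difference was 0.49, with 2.09 in cDC1, 0.17 in cDC2 and -0.41 in CD103- cells. The calcium channel subunit gene Cacnb3 was higher by 4.07 ± 0.65 (limma, adjusted p = 0.00091), and Il12b, a subunit of interleukin-12 and interleukin-23, by 2.48 ± 0.58 (limma, adjusted p = 0.0108). Ccr7 itself, the receptor that guides mature DCs, differed by 2.65 in cDC1, 0.75 in cDC2 and -0.30 in CD103- cells and was not shared (limma, adjusted p = 0.157). Without splenic CD103- replicate 1 its adjusted p was 0.0496, and in the fit of 8 group means it was 0.017. The NF-kappaB genes Rel and Nfkbia fell by 0.83 ± 0.17 (limma, adjusted p = 0.00461) and by 0.77 ± 0.17 (limma, adjusted p = 0.00858).

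Innate sensing and response genes were found among the shared clusters in both directions. Of 23 Toll-like receptors and adaptors 1 was shared higher and 6 lower, with a median of -0.53. Tlr4, the receptor for bacterial lipopolysaccharide, was higher by 2.55 ± 0.36 (limma, adjusted p = 0.000382), whereas Unc93b1, which carries nucleic acid sensing receptors to endosomes, fell by 2.02 ± 0.31 (limma, adjusted p = 0.000765) and Tlr1 fell by 1.46 ± 0.14 (limma, adjusted p = 2.42e-05). Of 42 interferon response genes 6 were shared higher, among them Usp18 at 1.60 ± 0.26 (limma, adjusted p = 0.00102), and 4 lower, among them Ifit2 at -2.80 ± 0.45 (limma, adjusted p = 0.000946). Both interferon counts are near the 14.1% and 11.3% of clusters above background in DCs that were shared higher and lower. In macrophages 24 of the 42 interferon response genes were called lower in thymus and 1 higher, against 7.53% and 6.21% of all clusters.

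Of 20 measured MHC class I presentation genes 6 were shared higher and 0 lower, with a median of 0.34. The class I gene RT1-N3 was higher by 1.39 ± 0.18 (limma, adjusted p = 0.000243), and macrophages differed by -1.30 (limma, adjusted p = 0.00158). Of 12 class II genes 1 was shared higher, the lysosomal reductase Ifi30 at 1.15 ± 0.16 (limma, adjusted p = 0.00038), and 1 lower, RT1-DOa at -0.83 ± 0.21 (limma, adjusted p = 0.0153). Both class II counts are near the shares over all clusters, 7.21% higher and 5.78% lower. Over clusters above background in DCs the shares were 14.1% and 11.3%. Adhesion genes split, with 8 of 39 shared higher and 10 lower. Cd44, a hyaluronan receptor, was higher by 3.06 ± 0.52 (limma, adjusted p = 0.00141), and the integrin subunit gene Itga4 fell by 1.80 ± 0.23 (limma, adjusted p = 0.000216). Of 32 cell cycle genes 9 were shared higher, such as the mitotic kinase gene Plk1 at 1.38 ± 0.22 (limma, adjusted p = 0.000803), and 1 lower, the replication clamp gene Pcna at -0.73 ± 0.16 (limma, adjusted p = 0.00777).

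Of 49 chemokines and chemokine receptors 6 were shared higher and 6 lower, with a median of 0.02. Cxcl10, an interferon-induced ligand of CXCR3, fell by 1.56 ± 0.26 (limma, adjusted p = 0.0012), and the receptor gene Cxcr3 differed by -4.14 or below (limma, adjusted p = 0.000439). Cxcl2, a neutrophil attractant, fell by 2.00 ± 0.38 (limma, adjusted p = 0.00277). Of 38 cytokines 4 were shared higher and 3 lower, among the lower the angiogenic factor gene Vegfa at -2.45 ± 0.43 (limma, adjusted p = 0.00184) and Il1b, an inflammatory cytokine, at -0.82 ± 0.20 (limma, adjusted p = 0.0137). Macrophages were called lower in thymus for all 5 of these named genes. The remaining shared lower cytokine gene, Hbegf, was called higher in thymic macrophages. Of all shared lower clusters, 38.1% were also called lower in thymic macrophages. Of all clusters 7.21% were shared higher and 5.78% lower, and of those above background in DCs 14.1% and 11.3%. The chemokine and cytokine counts are near these shares.

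Of 30 sterol synthesis and efflux genes 6 were shared higher and 2 lower, with a median of -0.06. The shares over clusters above background in DCs were 14.1% higher and 11.3% lower. Besides the exporters given above, Ch25h, an enzyme that makes an oxysterol, was higher by at least 2.03 in thymic DCs (limma, adjusted p = 3.13e-05) and by 3.38 in thymic macrophages (limma, adjusted p = 1.09e-06). Srebf2, the regulator of cholesterol synthesis genes, fell by 0.70 ± 0.14 (limma, adjusted p = 0.00389).

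T cell and thymocyte markers were measured as well, since thymic DCs lie among thymocytes. Of 29 measured, 15 were shared higher and 1, Cd7, was shared lower, with a median of 1.24. The shares over clusters above background in DCs were 14.1% higher and 11.3% lower. The recombinase gene Rag1 measured 12.48 and 11.35 in thymic cDC1, 10.39 and 11.24 in thymic cDC2 and 9.64 and 10.40 in thymic CD103- cells, against a range of 7.0 to 7.62 in splenic DCs. The organs did not overlap, and the difference was 3.59 ± 0.28 (limma, adjusted p = 6.31e-06). The list's mean level was 7.82 to 8.68 over the thymic DC arrays, against 6.41 to 7.10 over the splenic DC arrays, and 7.56 and 7.44 in thymic macrophages, against 6.30 and 6.43 in splenic macrophages. Of the 29 markers, 25 lay above background in thymic cDC1, against 17 in splenic cDC1. The counts were 23 in thymic against 15 in splenic cDC2, and 21 in thymic against 18 in splenic CD103- cells. Cd3g and Zap70, parts of the T cell receptor machinery, were below background in all thymic DC populations. Cd3e averaged 7.54 in thymic cDC1, 7.99 in cDC2 and 7.79 in CD103- cells of the thymus. Of the 15 shared higher members 10 were also called higher in thymic macrophages, against 20.5% of all shared higher clusters. The part of thymocyte RNA in the shared differences was not tested. Of 17 B cell markers 0 were shared higher and 2 lower, the latter near the 11.3% of clusters above background in DCs. Their median difference was 1.92 in cDC1, -0.40 in cDC2 and -1.07 in CD103- cells. The list's mean level was 8.75 and 8.13 in thymic cDC1, against 6.80 and 7.50 in splenic cDC1.

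**Figure D4:**
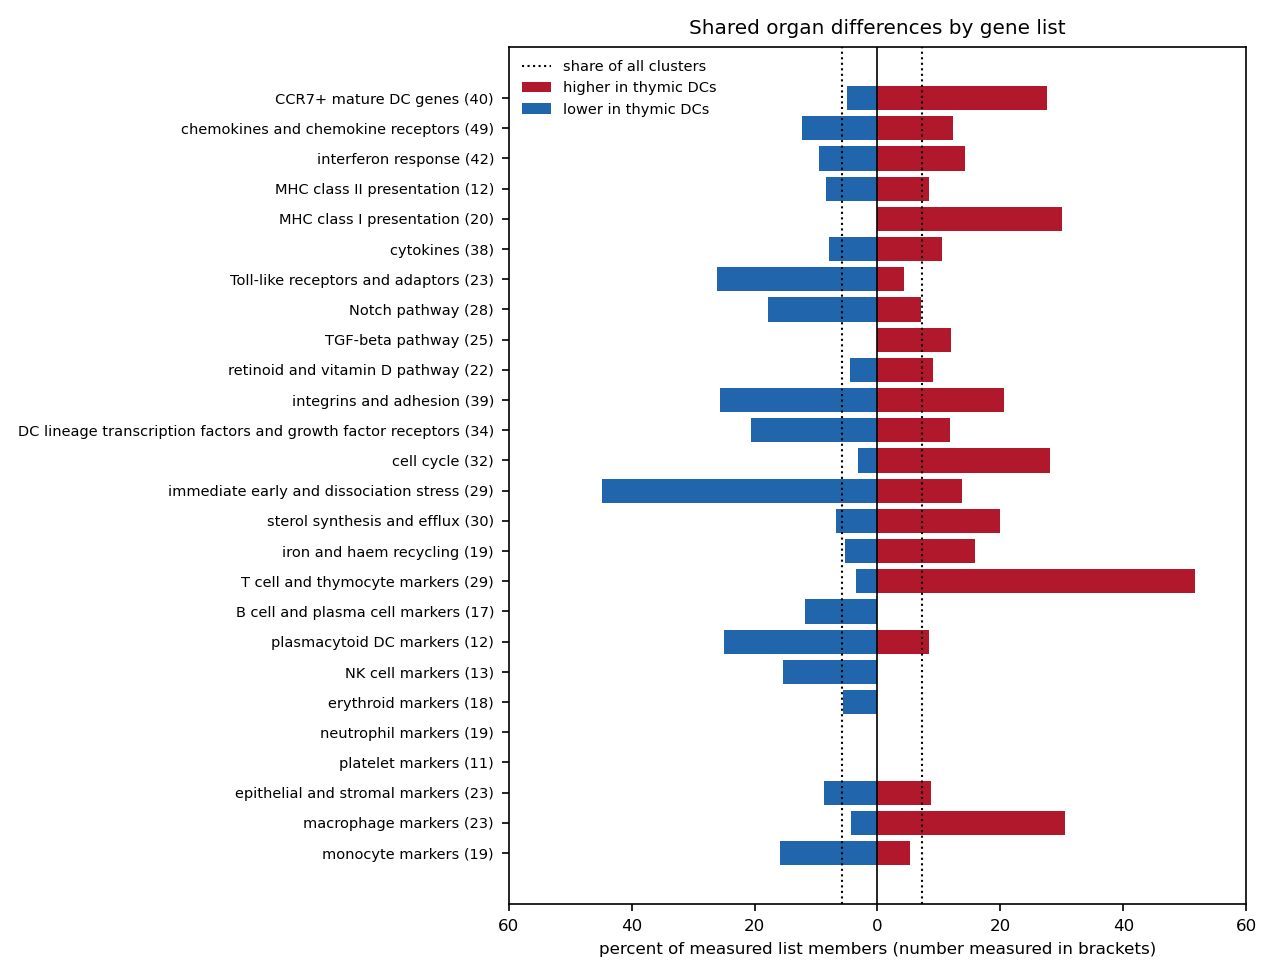
Percent of the measured members of the gene lists, without the list of Ccl17, Ccl22 and Ccr4, that were shared higher (right, red) or shared lower (left, blue) in thymic DCs, with the number measured in brackets. Dotted lines are the shares over all clusters, 7.21% higher and 5.78% lower. Among the lists drawn, T cell and thymocyte markers had the longest bar to the right and immediate early genes the longest to the left.

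Macrophages were called in the same direction in part of the shared clusters. Of the 1673 shared higher clusters, 343 (20.5%) were also called higher in thymic macrophages, against 6.21% of all clusters, 97 (5.80%) were called lower and 1233 were not called. Of the 1340 shared lower clusters, 510 (38.1%) were also called lower, against 7.53% of all clusters, 34 (2.54%) were called higher and 796 were not called. Without thymic macrophage replicate 2 the higher count was 227, and without splenic macrophage replicate 2 it was 208. Among 8379 clusters that were above background in DCs and macrophages and were not shared, 7.67% were called higher and 9.06% lower in thymic macrophages. The median macrophage difference was 0.29 over the shared higher and -0.56 over the shared lower clusters, against 0.05 over all clusters. The macrophage difference had the same sign in 69.9% of the shared higher clusters, against 54.7% of all clusters, and in 79.5% of the shared lower clusters, against 44.9% of all clusters. Of the 351 clusters called higher in each DC population, 123 (35.0%) were also called higher in thymic macrophages and 21 were called lower. Of the 303 called lower in each, 196 (64.7%) were also called lower and 5 were called higher. These DC and macrophage calls came from the same fit and share each cluster's spread. A cluster with a small spread is called more readily in all of them, so these percentages are no independent check. The shared set came from another fit, but the macrophage calls used a spread that included the same DC arrays. The 20.5% and 38.1% are therefore no independent check either.

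Markers of other cell types moved between the macrophage groups as well. In thymic macrophages 13 of 19 monocyte markers (median -2.50) and 8 of 13 NK cell markers were lower. So were 15 of 17 B cell markers and 12 of 18 erythroid markers. Of 19 neutrophil markers 9 were higher and 2 lower. Over all clusters 6.21% were called higher and 7.53% lower in thymic macrophages. Monocyte markers averaged 12.26 and 12.39 in thymic macrophages, against 14.19 and 14.35 in splenic macrophages. Neutrophil markers averaged 10.34 and 10.01 in thymic macrophages, against 9.86 and 9.71 in splenic macrophages. Their part in the macrophage differences was not tested.

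**Figure D5:**
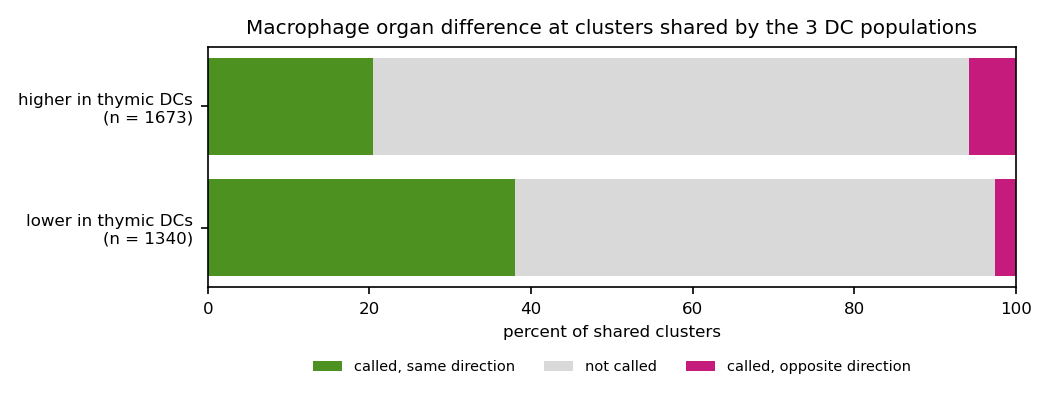
Percent of the 1673 shared higher and the 1340 shared lower clusters that were called in the same direction in macrophages (green), not called (grey) or called in the opposite direction (pink). The same direction took 20.5% of the higher and 38.1% of the lower set.

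The genes that macrophages followed most strongly included Cxcl13, a chemokine for B cells, which was higher by at least 3.82 in thymic DCs (limma, adjusted p = 3.33e-06) and by 4.29 in thymic macrophages (limma, adjusted p = 7.7e-06). Timd4, a receptor for phosphatidylserine on dying cells, was higher by 2.66 ± 0.33 in thymic DCs (limma, adjusted p = 0.000165) and by 2.89 in thymic macrophages (limma, adjusted p = 5.54e-07). On the lower side, the ribonuclease gene Rnase6 fell by 3.95 ± 0.33 in thymic DCs (limma, adjusted p = 9.32e-06) and the macrophage difference was -6.28 (limma, adjusted p = 6.87e-11). Hba1, an alpha globin gene, fell by 1.04 ± 0.15 in thymic DCs (limma, adjusted p = 0.000521) and the macrophage difference was -9.70 (limma, adjusted p = 1.84e-12). Of 18 measured erythroid markers, 1 was shared lower in DCs and 12 were lower in thymic macrophages, against 5.78% and 7.53% of all clusters.

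Other shared genes ran the opposite way in macrophages. Kcna3, a voltage-gated potassium channel, measured 12.07 to 13.17 in thymic DCs, against 7.38 to 11.20 in splenic DCs. It measured 7.11 and 7.26 in thymic macrophages, against 10.75 and 11.06 in splenic macrophages. The organ difference was 3.54 ± 0.31 in DCs (limma, adjusted p = 1.43e-05) and -3.72 in macrophages (limma, adjusted p = 9.12e-09). Cdh1, which encodes E-cadherin, was 2.77 ± 0.49 higher in thymic DCs (limma, adjusted p = 0.00191) and differed by -3.23 in macrophages (limma, adjusted p = 1.47e-07). Csf2rb differed by -2.79 in macrophages (limma, adjusted p = 7.93e-06). Hk2, a hexokinase of glycolysis, fell by 1.76 ± 0.28 in thymic DCs (limma, adjusted p = 0.000845) and was higher by 1.36 in thymic macrophages (limma, adjusted p = 0.00379). Over all shared clusters, 953 had a macrophage difference that differed from the mean DC difference (11.5% of all clusters tested did), a comparison whose DC side had chosen the clusters.

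Going the same way did not mean going equally far. The organ difference was unequal among the 3 DC populations in 342 shared higher (20.4%) and 272 shared lower clusters (20.3%), against 9.12% of all clusters by the limma F test. Shared clusters had to reach background and have an organ call, which the 9.12% did not require, so these shares are a description. Dab2, an endocytic adaptor, was higher in thymus by 1.00 in cDC1, 9.30 in cDC2 and 5.32 in CD103- cells. Treml4, a receptor of the TREM family, differed by -1.10 in cDC1, -7.54 in cDC2 and -4.00 in CD103- cells. Lgals3bp, a galectin-binding secreted protein, had its widest gap in cDC1, at 7.53, against 2.73 in cDC2 and 3.92 in CD103- cells.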

How the data were processed

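RNA of sorted cells was hybridised to 16 rat microarrays of the Clariom S type, which give 1 value per transcript cluster. The deposited values were log2 signals that, per the submitters' processing notes, the authors made with the Transcriptome Analysis Console. The sources used here give neither its version nor how arrays were normalized and corrected for background. Both deposited tables held the same values (largest difference 0), and array medians lay between 5.87 and 5.95, so values were used as deposited. The number of arrays limits the precision.

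Of 23188 clusters, 21498 carried 1 symbol. Where a symbol had several clusters, the brightest on average was taken. Organ was tested with population as a term on the 12 DC arrays (lmFit and eBayes of limma 3.58.1, R 4.3.3, two-sided). Single populations, macrophages and the macrophage minus DC contrast came from 8 group means on 16 arrays. P-values were adjusted by Benjamini-Hochberg over all clusters. The fits were tested on simulated data.

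The members and the 27 gene lists were chosen with earlier results of these data known, and some lists share genes. Genes were named by rule. It took 12 fixed genes, the 15 per direction with the largest smallest-of-3 difference, the 8 per direction with the largest macrophage difference in the same and in the opposite direction, the 6 with the smallest F test p, and up to 4 shared members per list and direction. The 15 per direction came only from shared genes whose thymic and splenic arrays did not overlap in any of the 3 populations. C1qa, C1qb, Mertk, Lgmn, Cd3e, Cd3g, Zap70, Xcr1, Clec9a, Plpp5 and Cers4 were named outside the rule. Replicate numbers were checked as pairs. Correlations of same-numbered arrays' deviations from their group means ran from 0.013 to 0.182 over 15 pairs of DC groups, and 4 were over 0.1, of which 3 were the pairs among the splenic populations. Between thymic and splenic groups none was over 0.1, so the numbers were not taken to pair arrays across organs. Alternatives covered the model, array weights, scaling, the filter on dim clusters, blocks and leaving out each array. Promoters came from RefSeq, build GRCr8, and were matched by symbol.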

Additional observations from a re-analysis of the deposited data

Results flagged for a closer look

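Named genes that ran opposite ways had been picked for calls in opposite directions, so a macrophage minus DC difference was built in. This organ difference, a description here, was taken from the 8 group mean fit of limma. Among genes higher in thymic DCs and lower in thymic macrophages, it was -7.26 log2 units for Kcna3, -6.24 for Cd300e, -6.12 for Atp2b4, -6.00 for Cdh1, -5.45 for Reep6, -4.83 for S100a6, -4.56 for Csf2rb and -4.45 for Adam8. Among genes lower in thymic DCs and higher in thymic macrophages, it was 3.12 for Hk2, 3.01 for Ctrc, 2.69 for Cd99, 2.61 for Igsf7, 2.45 for Aph1b, 2.30 for Slc9a7, 2.14 for Atm and 1.95 for Hbegf. The largest adjusted p among these 16 differences was 0.000964, for Hbegf. The splenic cDC1 mean of Atp2b4 lay below background, so its -6.12 is not exact. The DC differences of Aph1b, Atm and Hbegf lost their call when single arrays were left out, with adjusted p up to 0.0594 for Aph1b, 0.117 for Atm and 0.106 for Hbegf. The other 2 clusters of Aph1b differed by -0.94 (limma, adjusted p = 0.00517) and by -0.11 (limma, adjusted p = 0.717) in DCs.

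The F test of organ by population is given for Ccl22 and for genes picked by their small p in it. All had a call for an unequal organ difference among the 3 DC populations. Other named genes were not counted here, and the F values of the picked genes are a description. F was 52.6 for Ccl22, 126.49 for Treml4, 124.18 for Lgals3bp, 123.88 for P2rx7, 112.96 for Dab2 and 110.97 for S100a4. P2rx7, a receptor for extracellular ATP, differed by -6.66 in cDC1, by -0.80 or below in cDC2 and by -0.79 or below in CD103- cells. Its shared call was lost without thymic cDC1 replicate 1 (adjusted p = 0.0516), thymic cDC1 replicate 2 (0.0508) or splenic cDC1 replicate 1 (0.0537). S100a4, a calcium-binding protein, was higher by at least 4.34 in cDC1, at least 6.71 in cDC2 and 2.15 in CD103- cells.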

How the results depend on the processing

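The counts of shared clusters held within 1.5 times under other models, scalings, weights and filters, except when every population had to differ by at least 1 log2 unit, which left 242 higher and 242 lower clusters. No result reversed. With the replicate number as a replicate block, 1678 clusters were higher and 1346 lower, against 1673 and 1340 without it. Median centring gave 1471 higher and 1494 lower, and quantile normalization 1405 and 1564. Organ and replicate number as a random block gave 1909 and 1506, and averaging the 3 populations, 2 against 2, gave 1571 and 1222. With cDC1 and cDC2 alone, 29 of 166 named genes lost their call in a fit of fewer arrays, among them Nfkbia, Adam8, Aph1b and Igsf7. A trended, robust variance fit took Reep6 (adjusted p = 0.0554) and P2rx7 (0.0699) past the threshold, and quantile normalization took Hbegf past it (0.0683). With 1 array left out, shared higher clusters numbered 1338 to 1615 and shared lower 1096 to 1259. Ccl22 ranged from 8.73 to 9.48 and Ccl17 from 7.80 to 8.09. Clusters called in each population ranged from 239 to 345 higher and from 210 to 302 lower. Macrophages followed in 208 to 363 higher and 397 to 508 lower clusters, the lowest higher counts being 227 and 208 without replicate 2 of thymic or of splenic macrophages, and differed from DCs in 678 to 933. The organ effect differed among populations in 447 to 614. Where an array was left out of a group, the lone array was assumed to vary like the other groups. Signal over background limits genes whose group mean lay under 5.73, for which only bounds are given.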
